A study of Zea mays with 36 samples.

Results

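The genes described here encode 6 proteins of the ribosome: rpp2b and arpp2a, both acidic P2 proteins of the ribosomal stalk, and rpl2, rpl17, rpl30 and rps21b, whose products belong to the body of the large or the small subunit and are called core proteins here. Their probes were found by the platform's gene annotation, in which 1 of these 6 names stands as symbol or synonym in any letter case. The search gave all 6 genes, of 740 named genes in all, with 48 of the 30329 probes that hold a value on 2 slide sets. Slide set 1 held 36 member probes for 5 genes: 3 for rpp2b, 20 for arpp2a, 10 for rpl17, 2 for rpl30 and 1 for rps21b, with none for rpl2. Slide set 2 held 12 member probes for all 6 genes: 1 for rpp2b, 2 for arpp2a, 2 for rpl2, 4 for rpl17, 2 for rpl30 and 1 for rps21b. The annotation gives symbols without protein descriptions, so the compartment of each protein rests on its symbol; rpl2 has no entry in the gene table used for names.

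The samples came from maize of the inbred line B73, grown for 14 days in a controlled light and temperature cycle. Each of the 6 biological replicates set RNA of 6 to 10 shoot apical meristems (SAMs), cut out by laser capture microdissection together with the youngest leaf primordia (P0 and P1), against RNA of 6 pooled seedlings without roots from the same batch of plants. Both RNAs were amplified with T7 RNA polymerase, labelled with Cy3 or Cy5 and hybridised together to spotted cDNA arrays, so that each slide gave a ratio and not a level; SAM was in Cy3 in replicates 1, 3 and 5 and in Cy5 in replicates 2, 4 and 6. The labels give 6 replicates in all for both slide sets, which carry different clones, so slide set 2 is a second look with other probes and not a second set of plants. The seedlings still contained their own meristems, and the SAM and seedling RNAs were extracted by different methods, so the tissue and the way its RNA was extracted cannot be told apart. A ratio also cannot tell fewer cells of a type from less RNA per cell.

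Ribosomes are built from ribosomal RNA and a large set of proteins, most of them buried in the particle and present once in each. The stalk of the large subunit differs: a P0 protein is anchored on the ribosomal RNA and carries dimers of the small acidic proteins P1 and P2, plants having a further type, P3, and the stalk is where elongation factors are recruited and their GTP hydrolysis is stimulated. In yeast, P1 and P2 can exchange between ribosomes and a free pool in the cytoplasm, in contrast to the core proteins. Dividing tissues such as meristems are known for a high demand for new ribosomes, and plant ribosomal proteins are usually encoded by several genes each.

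All values below are log2 ratios, centred on the median of each scan and averaged over 3 scans of a slide; a gene's value is the mean of its probes. The direction is likely and not stated: genes of photosynthesis had strongly negative values, so that positive values are read as the SAM side and negative values as the seedling side. The gene ssu1, which encodes the Rubisco small subunit, stood at -5.71 ± 0.60 on slide set 1 and te1, a regulator of leaf initiation, at 6.77 ± 0.91 (SD, n = 6 slides). These genes stood at -5.64 ± 0.40 and 3.58 ± 0.38 on slide set 2 (SD, n = 6 slides). The meristem homeobox gene kn1 was at 0.30 ± 0.25 on slide set 1 and at 1.95 ± 0.37 on slide set 2 (SD, n = 6 slides). As means over their clones, all 9 seedling markers were negative wherever measured and all 7 SAM markers were positive. Single clones of a marker could differ in sign. The lhcb6 clones on slide set 2 ran from -6.89 to 1.71, with 2 called toward SAM and 2 toward seedling. The kn1 clones ran from -0.22 to 0.81 on slide set 1 and from -0.17 to 4.06 on slide set 2. Differences between the tissues were widespread: limma with a dye term and Benjamini-Hochberg adjustment called 62.5% of all probes on slide set 1 (31.5% toward SAM and 31% toward seedling) and 64.6% on slide set 2 (33.4% and 31.2%) at an adjusted p under 0.05.

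Against that background, the 36 member probes of slide set 1 gave 15 calls toward SAM, 4 toward seedling and 17 without a call. The 12 of slide set 2 gave 7 toward SAM, 3 toward seedling and 2 without a call. The same sign on all 6 slides was seen for 17 of the 36 member probes of slide set 1 and 9 of the 12 of slide set 2, beside 50.3% and 55.4% of all probes. Calls toward the seedling side came from rpp2b and rpl30 only, on both slide sets. Counted by gene, slide set 1 had arpp2a and rps21b toward SAM, rpp2b and rpl30 toward seedling and rpl17 without a call, where 72.3% of the 582 named genes were called, 27.1% toward SAM and 45.2% toward seedling. For slide set 2, rpl2, arpp2a, rpl17 and rps21b were called toward SAM and rpp2b and rpl30 toward seedling, where 73.6% of the 455 named genes were called, 27.9% and 45.7% in these directions. The median of the member genes was 0.22 on slide set 1 and 0.56 on slide set 2, beside -0.24 and -0.22 over all named genes.

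**Figure D1:**
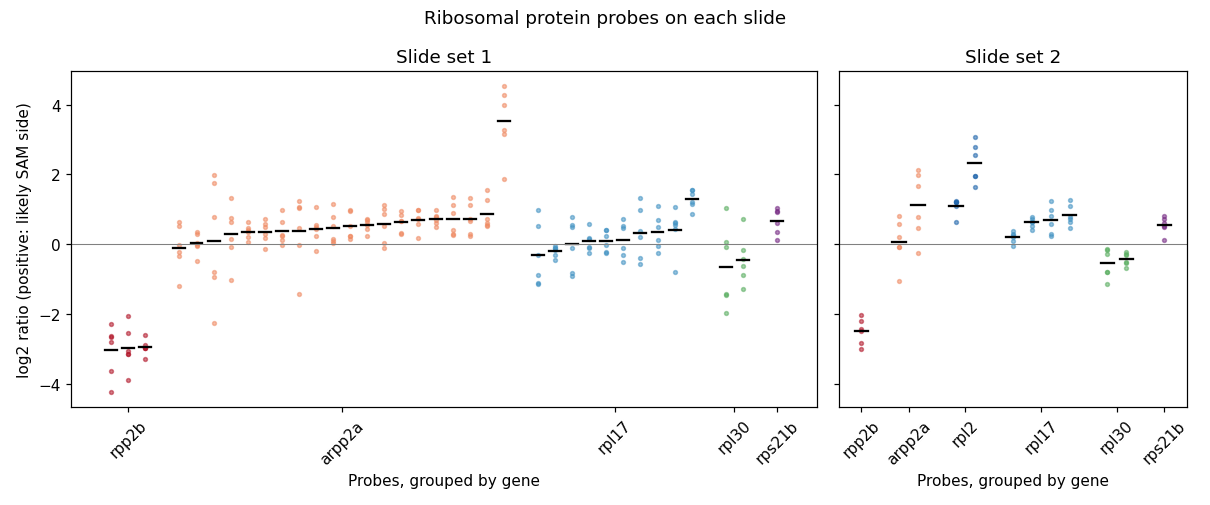
Log2 ratio of SAM over seedling (likely direction, vertical axis) of each member probe, grouped by gene along the horizontal axis, for both slide sets; points are the 6 slides and bars their mean. The rpp2b probes lay between -4.22 and -2.03 on every slide, 1 arpp2a probe of slide set 1 stood far above the other 19, and the core genes lay nearer to 0, with rpl2 highest among them.

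The acidic P2 gene rpp2b had the ratio farthest toward the seedling side of all the genes annotated as ribosomal proteins, on both slide sets. Its value on slide set 1 was -2.92, -3.25, -2.87, -2.49, -3.16 and -3.24 on the slides of replicates 1 to 6. All 6 slides were low and close together, with a mean of -2.99 ± 0.29 (SD, n = 6), a 7.93-fold lower signal on the SAM side (limma, adjusted p = 8.82e-06). Its 3 clones gave nearly the same mean, -3.04 for probe 3729, -2.98 for probe 8254 and -2.95 for probe 7902, and each was called. The clones differed in how they varied between slides: probe 3729 ranged from -4.22 to -2.29, while probe 7902 ranged only from -3.28 to -2.60. Only 5.14% to 5.40% of all probes on that slide set were lower than these clones.

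Slide set 2 measured rpp2b by probe 6722 alone, which read -2.21, -2.83, -2.03, -2.48, -2.43 and -3.02 on replicates 1 to 6. Again no slide came near 0; the mean was -2.50 ± 0.37 (SD, n = 6), a 5.65-fold lower signal on the SAM side (limma, adjusted p = 1.34e-06), with 6.92% of probes lower. The size of the ratio moved with the scan for this clone, from -2.83 in the low and -2.74 in the medium scan to -1.92 in the high scan. The mean with SAM in Cy3 was -2.22 and with SAM in Cy5 -2.77, both far below 0. The slide sets come from separate tables whose normalization is not stated, so their values stand side by side and were not tested against each other.

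The other P2 gene, arpp2a, did not follow rpp2b and lay on the SAM side. The mean of its 20 clones on slide set 1 was 0.70, 0.51, 0.58, 0.57, 0.60 and 0.68 on replicates 1 to 6. The 6 slides were all positive and within a narrow band, with a mean of 0.61 ± 0.07 (SD, n = 6), 1.52-fold toward SAM (limma, adjusted p = 0.00065). Of the 20 clones 19 had a positive mean, 11 were positive on all 6 slides, 13 were called toward SAM and 0 toward seedling. The other 7 clones missed the threshold, at an adjusted p between 0.053 and 0.90 by the same limma fit, and lay between -0.11 and 0.43.

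The clones of arpp2a did not all give the same ratio. Probe 7831 read 4.53, 3.16, 4.00, 4.28, 1.86 and 3.28 on replicates 1 to 6, a mean of 3.52 ± 0.98 (SD, n = 6) that was 11.5-fold toward SAM. The next highest clone, probe 10952, stood at 0.87, and the median of the 20 clone means was 0.48. Of the member clones, probe 7831 also changed most with the scan, from 4.69 in the low to 3.53 in the medium and 2.34 in the high scan, while probe 10952 stayed at 0.86, 0.87 and 0.87. With the median over the clones of each slide in place of their mean, arpp2a was at 0.57 with an adjusted p of 0.0015 by the same fit, so the call did not rest on probe 7831. Probe 11422 went the other way with dye: its mean was -1.34 with SAM in Cy3 and 1.5 with SAM in Cy5, and its dye term passed the threshold (limma, adjusted p = 0.033). A cDNA clone can bind transcripts of near-identical genes, and whether these clones did so was not tested; the gene table places a further copy, arpp2a-2, next to arpp2a, and no probe carries its name.

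Slide set 2 measured arpp2a by 2 clones. In 7 of their 36 scans the ratio equalled the value repeated most often in that scan. Such a ratio was read as both channels at the floor, an inference made without channel intensities. These were all such cases among the 216 scans of the member clones there. The gene read -0.16, 0.46, 0.80, 0.34, 1.34 and 0.79 on replicates 1 to 6, so that 5 of 6 slides were positive. The mean was 0.60 ± 0.51 (SD, n = 6; limma, adjusted p = 0.029). Probe 6547 was called at 1.13 ± 0.94 and probe 13420 was not, at 0.06 ± 0.66 (SD, n = 6 for both). The call was lost without any 1 of replicates 2, 3, 4, 5 or 6 (0.42 to 0.64, adjusted p 0.056 to 0.081) and in each scan taken alone, where the value was 0.23, 1.05 and 0.51 in the low, medium and high scan.

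**Figure D2:**
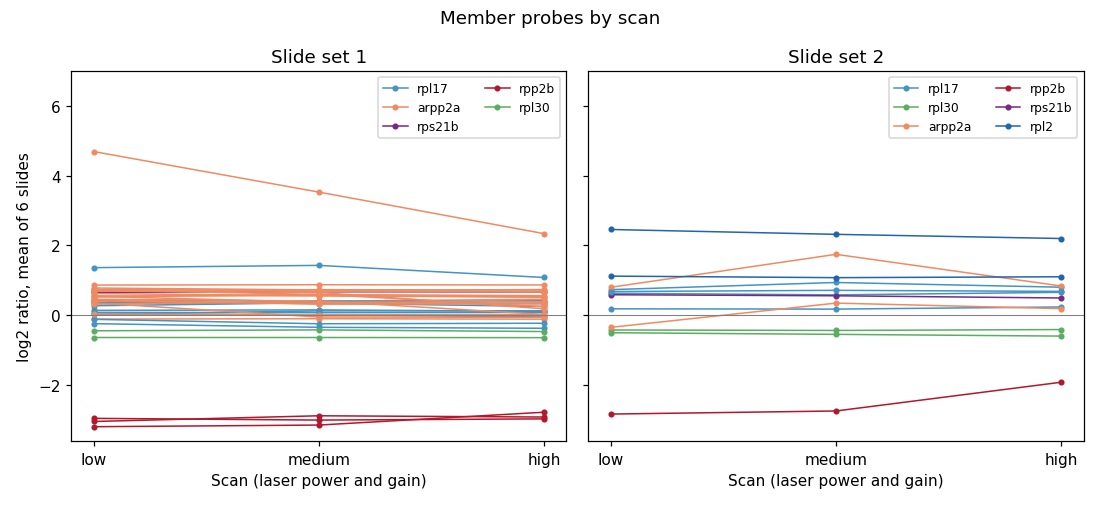
Mean log2 ratio over 6 slides (vertical axis) of each member probe in the low, medium and high scan (horizontal axis), coloured by gene, for both slide sets. Most lines are flat; arpp2a probe 7831 of slide set 1 falls from 4.69 to 2.34, and on slide set 2 rpp2b moves from -2.83 to -1.92 and both arpp2a clones peak in the medium scan.

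The 2 P2 genes were then set against each other on the same slide, where both share RNA, dye and scan. On slide set 1 rpp2b lay below arpp2a by a difference of -3.62, -3.77, -3.44, -3.06, -3.76 and -3.92 on replicates 1 to 6. The mean difference was -3.59 ± 0.31 (SD, n = 6 slides), a 12.1-fold gap between the ratios, with the smallest p that an exact two-sided sign-flip permutation test over 6 slides can give (p = 0.03125; 0.044 after adjustment over 7 gene pairs). The difference on slide set 2 was -2.05, -3.28, -2.83, -2.82, -3.77 and -3.81, with a mean of -3.09 ± 0.67 (SD, n = 6 slides; exact sign-flip p = 0.03125, 0.040 after adjustment over 9 pairs). The gap there was 8.54-fold, with arpp2a resting on the 2 clones described above. In the medium and the high scan of slide set 2 alone the difference was -3.79 and -2.43, with an adjusted p of 0.056 in each (exact sign-flip test). On each of the 12 slides even the lowest arpp2a clone lay above the highest rpp2b clone: the distance was 0.029 on replicate 5 of slide set 1, where arpp2a probe 11422 read -2.26, and at least 1.33 on the other slides.

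The core genes differed among themselves. The gene rpl2, whose protein in other eukaryotes lies close to the peptidyl transferase centre, had the highest ratio of the ribosomal protein genes on slide set 2 and no probe on slide set 1. It read 1.59, 1.41, 1.94, 1.88, 2.15 and 1.30 on replicates 1 to 6, all clearly positive, with a mean of 1.71 ± 0.33 (SD, n = 6), 3.27-fold toward SAM (limma, adjusted p = 1.74e-05). Both clones were called, at 1.10 ± 0.23 for probe 11189 and 2.32 ± 0.57 for probe 13997 (SD, n = 6). The second clone was higher than the first on each of the 6 slides and stood above 97.2% of all probes of that slide set.

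For rpl17, a large-subunit protein that in yeast and mammals lines the exit tunnel of the nascent chain, the slide sets gave different calls. It read 0.80, 0.48, 0.58, 0.33, 0.72 and 0.59 on replicates 1 to 6 of slide set 2, all positive, with a mean of 0.58 ± 0.17 (SD, n = 6; limma, adjusted p = 0.00046), and 3 of its 4 clones were called toward SAM. The 10 clones of slide set 1 averaged 0.60, -0.08, 0.45, 0.06, 0.61 and -0.35, a mean of 0.22 ± 0.40 (SD, n = 6) that did not pass the test (limma, adjusted p = 0.077). The slides with SAM in Cy3 averaged 0.55 there and those with SAM in Cy5 -0.12, and the Cy3 slides alone passed the test (limma, adjusted p = 0.021). Of the 10 clones only probe 198 was called, at 1.29 ± 0.26 (SD, n = 6); the other 9 lay between -0.32 and 0.41. Probes 5228 and 5667 had a dye term past the threshold (limma, adjusted p = 0.047 and 0.043).

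The gene rpl30, which encodes a large-subunit protein that in yeast also represses the splicing of its own transcript, was the core gene on the seedling side. Its values were -0.48, -0.67, -0.32, -0.55, -0.22 and -0.68 on replicates 1 to 6 of slide set 2, with a mean of -0.49 ± 0.19 (SD, n = 6; limma, adjusted p = 0.00099), and both clones were called. Those of slide set 1 were -0.26, -0.81, -0.60, -1.03, 0.08 and -0.63, with a mean of -0.54 ± 0.40 (SD, n = 6; limma, adjusted p = 0.0063). Probe 4353 was called at -0.64 ± 1.15 and probe 17040 was not, at -0.44 ± 0.68 (SD, n = 6). Probe 4353 depended on the dye: it averaged 0.34 with SAM in Cy3 and -1.62 with SAM in Cy5 (adjusted p of the dye term = 0.034 by limma). The gene's value was -0.26 with SAM in Cy3 and -0.82 with SAM in Cy5, and the call was lost on the Cy3 slides alone (adjusted p = 0.27).

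The small-subunit gene rps21b was measured by 1 clone on each slide set. On slide set 1 it read 1.03, 0.12, 0.96, 0.62, 0.91 and 0.35 on replicates 1 to 6, a mean of 0.67 ± 0.37 (SD, n = 6; limma, adjusted p = 0.00097). On slide set 2 it read 0.13, 0.71, 0.81, 0.52, 0.60 and 0.51, a mean of 0.55 ± 0.23 (SD, n = 6; limma, adjusted p = 0.0031). All 12 slides were positive. The slides of set 1 with SAM in Cy3 averaged 0.97 and those with SAM in Cy5 0.37, and the call was lost on the Cy5 slides alone (adjusted p = 0.12).

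**Figure D3:**
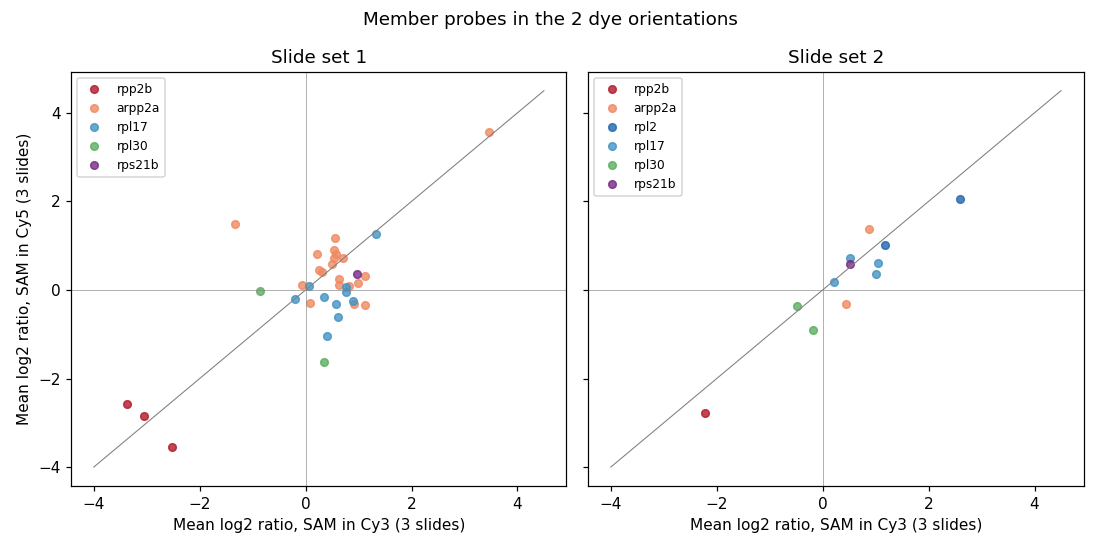
Mean log2 ratio of each member probe over the 3 slides with SAM in Cy3 (horizontal axis) against the 3 slides with SAM in Cy5 (vertical axis), coloured by gene; the diagonal marks equal values. The rpp2b clones lie at the lower left in both orientations, and arpp2a probe 11422 (-1.34 and 1.5) and rpl30 probe 4353 (0.34 and -1.62) lie farthest from the diagonal on slide set 1.

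A dye term past the threshold was found for 4 of the 36 member probes of slide set 1 (11.1%, beside 12.7% of all probes) and for 0 of the 12 of slide set 2 (beside 8.41%).

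The P2 genes were next compared with the core genes on the same slides. The gene rpp2b lay below each core gene it could be compared with, on 6 of 6 slides each time. The mean difference on slide set 1 was -3.20 ± 0.44 from rpl17, -2.45 ± 0.58 from rpl30 and -3.65 ± 0.37 from rps21b (SD, n = 6 slides; exact sign-flip p = 0.03125 and adjusted p = 0.044 for each). On slide set 2 it was -4.21 ± 0.28 from rpl2, -3.08 ± 0.36 from rpl17, -2.01 ± 0.26 from rpl30 and -3.04 ± 0.45 from rps21b (SD, n = 6 slides; exact sign-flip p = 0.03125 and adjusted p = 0.040 for each). The smallest of these gaps, to rpl30, was thus still 5.45-fold on slide set 1 and 4.03-fold on slide set 2, and the gap to rpl2 was 18.5-fold. In the medium and in the high scan of slide set 2 taken alone, these differences ranged from -4.44 to -1.42 and had an adjusted p of 0.056 each (exact sign-flip test).

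The gene arpp2a ran among the core genes. It lay above rpl30 on all 6 slides of both sets, by 1.15 ± 0.37 on slide set 1 and 1.08 ± 0.45 on slide set 2 (SD, n = 6 slides; exact sign-flip p = 0.03125, adjusted p = 0.044 and 0.040). It lay below rpl2 on all 6 slides of slide set 2, by a difference of -1.12 ± 0.46 (SD, n = 6 slides; exact sign-flip p = 0.03125, adjusted p = 0.040). Against rps21b the difference was -0.06 ± 0.34 on slide set 1, with slides from -0.38 to 0.39, and 0.05 ± 0.40 on slide set 2, with slides from -0.29 to 0.75; neither passed (SD, n = 6 slides; exact sign-flip adjusted p = 0.72 and 0.91). Against rpl17 it was 0.39 ± 0.39 on slide set 1, with slides from -0.01 to 1.03, and 0.01 ± 0.53 on slide set 2, with slides from -0.96 to 0.62; neither passed (SD, n = 6 slides; exact sign-flip adjusted p = 0.073 and 0.97). These pairs were therefore not told apart at this spread, which does not show that they were equal. The differences of arpp2a from rpl2 and rpl30 on slide set 2 did not pass in the medium or the high scan alone (-0.65 and 1.54, then -1.14 and 1.02, with an exact sign-flip adjusted p from 0.094 to 0.39).

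Set against the mean of the core genes of the same slide, rpp2b was at -3.10 ± 0.44 on slide set 1 and -3.09 ± 0.30 on slide set 2, while arpp2a was at 0.49 ± 0.33 and 0.01 ± 0.43 (SD, n = 6 slides). The core mean takes in 3 genes on slide set 1 and 4 on slide set 2, so these values stand side by side and carry no test.

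**Figure D4:**
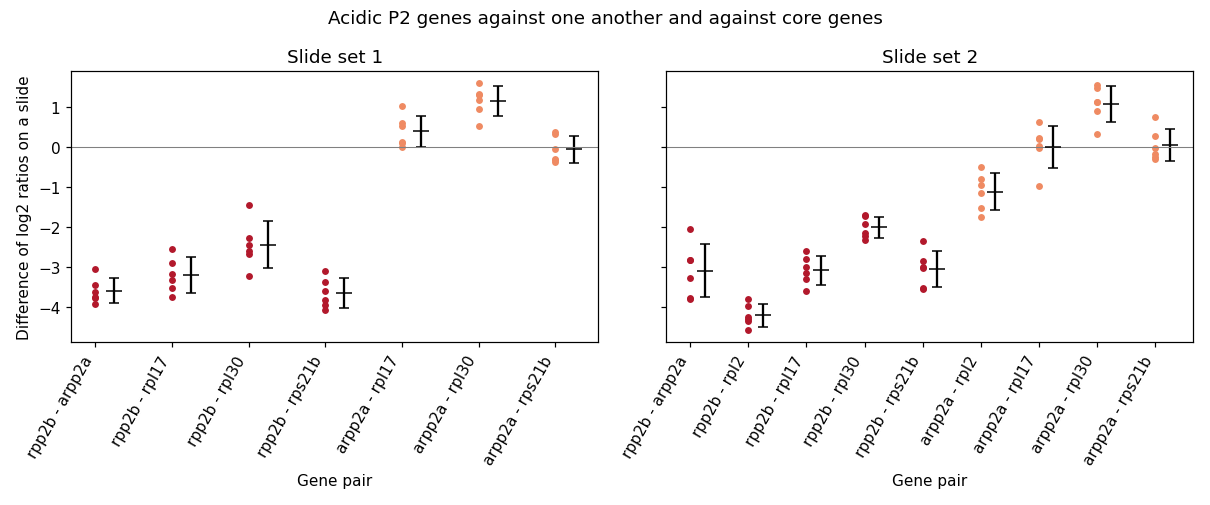
Difference of log2 ratios on the same slide (vertical axis) for each pair of a P2 gene with the other P2 gene or a core gene (horizontal axis); points are the 6 slides, and the black marks give the mean and SD. All pairs with rpp2b first lie below 0 on every slide, from -1.46 downward, whereas the pairs of arpp2a with rpl17 and rps21b straddle 0.

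Other genes annotated as ribosomal proteins stayed closer to 0 than rpp2b. Slide set 1 held 12 such genes with 57 probes. Of these genes 2 were called toward SAM, 3 toward seedling and 7 neither way, with a median of 0.14. Over all 582 named genes 27.1% were called toward SAM and 45.2% toward seedling. The genes rps27, of the small subunit, at 0.53 ± 0.42 and arpp3, the plant P3 stalk protein, at 0.44 ± 0.25 were those toward SAM (SD, n = 6; limma, adjusted p = 0.0040 and 0.010). Those toward seedling with the smallest adjusted p were RP-P0, the stalk base, at -0.43 ± 0.37 and rps6, of the small subunit, at -0.36 ± 0.15 (SD, n = 6; limma, adjusted p = 0.0082 and 0.010). The remaining calls, named after their values were seen, were rps6-2 at -0.42 ± 0.29 on slide set 1 and rpl39 at 0.29 ± 0.23 on slide set 2 (SD, n = 6; limma, adjusted p = 0.015 and 0.040). Slide set 2 held 11 such genes with 21 probes. Of these genes 3 were called toward SAM, 1 toward seedling and 7 neither way, with a median of 0.08. Over all 455 named genes of slide set 2 these shares were 27.9% toward SAM and 45.7% toward seedling. There rps27 at 0.72 ± 0.42 and rps28, also of the small subunit, at 0.60 ± 0.39 led the SAM side, and RPL27A, of the large subunit, at -0.97 ± 0.84 was the gene toward seedling (SD, n = 6; limma, adjusted p = 0.0019, 0.011 and 0.027). The RPL27A value rests on 1 clone; on slide set 1 the gene, with 7 clones, was at -0.10 ± 0.28 without a call (SD, n = 6; limma, adjusted p = 0.51). For rps6 on slide set 1 the median of its 5 clones was -0.0073. Its 1 clone on slide set 2 had the opposite sign, at 0.27 ± 0.29 without a call (SD, n = 6, limma, adjusted p = 0.058). The range of these genes was -0.43 to 0.53 on slide set 1 and -0.97 to 0.72 on slide set 2.

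**Figure D5:**
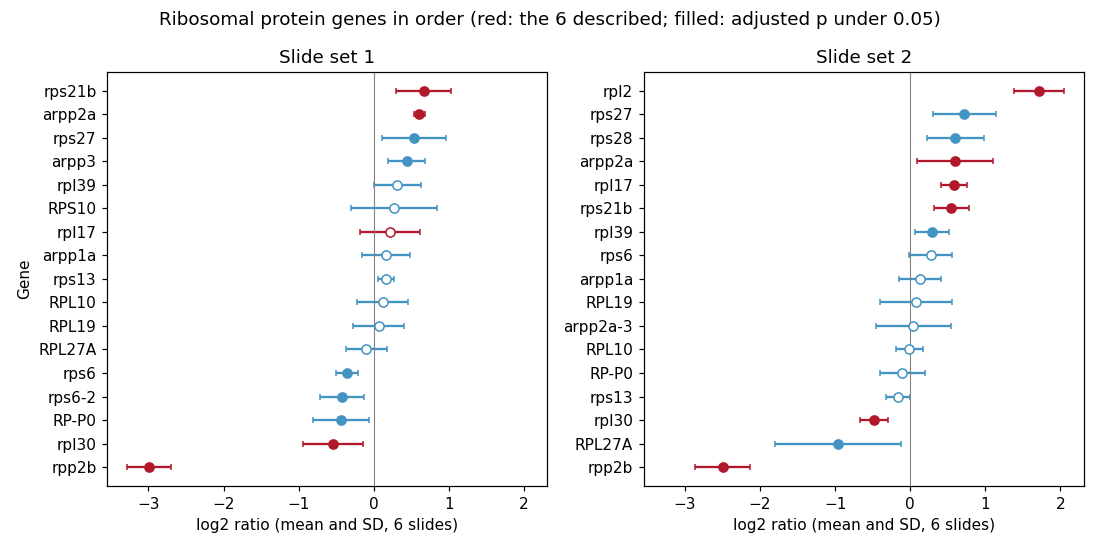
Mean log2 ratio with SD over 6 slides (horizontal axis) of every gene annotated as a ribosomal protein, in order (vertical axis), with the 6 genes described in red, the others in blue, and filled points at an adjusted p under 0.05. On both slide sets rpp2b stands alone at the seedling end, at -2.99 and -2.50, and the next genes are rpl30 at -0.54 and RPL27A at -0.97.

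In that order, neighbours on the SAM side of slide set 1, rps21b at 0.67, arpp2a at 0.61 and rps27 at 0.53, lay within their spread of one another. On slide set 2 the same held for rps27 at 0.72, rps28 at 0.60, arpp2a at 0.60, rpl17 at 0.58 and rps21b at 0.55. There rpl2 at 1.71 and rpp2b at -2.50 had no neighbour within their SD.

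The remaining stalk proteins did not share the ratio of rpp2b. The P1 gene arpp1a was at 0.16 ± 0.32 on slide set 1 and 0.13 ± 0.28 on slide set 2, without a call on either (SD, n = 6; limma, adjusted p = 0.12 and 0.26). RP-P0, called on slide set 1, was at -0.11 ± 0.30 on slide set 2 (SD, n = 6; limma, adjusted p = 0.38). A further P2 gene, arpp2a-3, was measured by 1 clone of slide set 2 at 0.04 ± 0.50 (SD, n = 6; limma, adjusted p = 0.80). Its slides ran from -0.40 to 0.82 and all lay above those of rpp2b.

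Taken as gene means, elongation factor 1 alpha, which brings aminoacyl-tRNA to the ribosome, was on the seedling side where called. EF1-A was at -0.65 ± 0.26 on slide set 1 and -1.27 ± 0.39 on slide set 2 (SD, n = 6; limma, adjusted p = 0.00073 and 1.15e-05). The gene elfa2 was at -0.26 ± 0.14 and elfa3 at -0.39 ± 0.10 on slide set 1 (SD, n = 6; limma, adjusted p = 0.032 and 0.0044). The 25 elfa2 clones there ran from -2.55 to 1.28, with 3 called toward SAM and 11 toward seedling. The gene elfa2 on slide set 2, at -0.08 ± 0.17, and elfa5 on slide set 1, at 0.20 ± 0.45, had no call (SD, n = 6; limma, adjusted p = 0.29 and 0.24). EF1-A clones on slide set 1 ran from -6.23 for probe 5974 to 4.24 for probe 3796, so its mean joins clones of opposite sign, and the median of its 24 clones was -0.15. The median of its 8 clones on slide set 2 was -0.73, with probe 13773 at -5.07.

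The named genes whose 6 slides lay closest to each member were found by the root mean square difference, a description over 6 slides that share RNA and dye. For rpp2b these were PIP1-3 (0.37) and tub4 (0.39) on slide set 1 and mha4 (0.36) and pdh2_541700 (0.37) on slide set 2, none of them annotated as ribosomal. For rpl17 and rpl30 on slide set 1 the closest were 2 other stalk genes, arpp1a (0.13) and RP-P0 (0.18), followed by gsy199(ptk) (0.17) and tub5 (0.22). For arpp2a they were SH-1 (0.17) and LOC778431 (0.17) on slide set 1 and a gene annotated only by clone names (0.30) and LOC542193 (0.36) on slide set 2. For rps21b they were pk8-a (0.17) and PCNA (0.23), then KAPP (0.17) and mbd111 (0.19). For slide set 2, AKHSDH1 (0.15) and pk8-a (0.15) lay closest to rpl17, pco067871 (0.15) and tub7 (0.17) to rpl30, and fea2 (0.33) and nfc101 (0.34) to rpl2.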

How the data were processed

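The deposited values are ratios of both channels on a log scale, 1 column per scan, with 3 scans for each of 12 slides. Per the labels, each slide was scanned 7 times and 3 scans were kept, the dye assignment alternated between odd and even replicates, and about 10 ng of RNA was amplified per sample. How the values were normalized and background-corrected, and which channel is the numerator, is not given in the sources used here. The base of the deposited values was read as the natural log: the spacing of repeated values matched 2 times the natural log of an integer in 57 pairs, beside 0 pairs for log2 and 1 for log10. Slides of opposite dye correlated positively over all probes (0.701 to 0.861 on slide set 1, 0.597 to 0.745 on slide set 2), so the columns were taken as turned the same way. One scan (high scan, replicate 4, slide set 1) has a tissue label that names seedling for both dyes; its sample name was followed.

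The natural log ratios were converted to log2, each scan was centred on its median (-0.08 to 0.057 before centring) and the scans were averaged per slide. Of 19200 and 14080 spots, 898 and 2001 had no value. On slide set 2, 53 spots identical in all scans to another were counted once. A total of 1787 and 753 probes carry 1 gene name, giving 582 and 455 genes, of which 561 and 441 match the gene table; 23 probes with several genes were left unnamed. Each slide set was fitted alone with limma 3.58.1 (R 4.3.3; intercept and dye term, eBayes, Benjamini-Hochberg over all probes or named genes, threshold 0.05). Gene pairs were compared with the exact two-sided sign-flip permutation test over 6 slides, whose smallest p is 0.03125, adjusted over 7 or 9 pairs. Tested on simulated data, the fit over all 18302 probes of slide set 1 recovered 1%, 44% and 78% of probes changed by 0.5, 1 and 2 on the log2 scale; for the 12027 probes of slide set 2 it recovered 17%, 74% and 92%. Unchanged probes made up 6.06% and 7.41% of the calls on the simulated data. These percentages belong to the simulated data and were not carried over to the measured probes. Of the 20 measured arpp2a clones on slide set 1, with a median of 0.48, 13 were called and 7 were not. The simulation changed only a small share of the probes, whereas 62.5% and 64.6% of the measured probes were called. The Benjamini-Hochberg adjustment was therefore stricter in the simulation. The simulated recovery, such as the 1% at a change of 0.5, cannot be read as the recovery among the measured probes. The number of arrays limits the precision.

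The members, gene lists and contrasts were chosen with earlier results of these data known. Named are all members and their probes, the 2 other ribosomal protein genes with the smallest adjusted p per direction and slide set, the stalk and elongation factor genes, tissue markers and the 2 nearest genes of each member. No sequence was analysed here. Alternatives covered centring, scaling, single scans, single dye orientations, each replicate left out and the log base. They also covered the dye term, the variance model, a 2-fold limit, missing values and the median over clones. A further alternative left out spots read as having both channels at the floor. The last was chosen after seeing the data, as was the median over clones for single genes. Some of these outcomes were fixed in advance. The missing-value alternative repeated the main fit, since all probes used had a value in every scan. Another log base rescales all values and cannot change a call by adjusted p. Centring cancels within a gene pair.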

Additional observations from a re-analysis of the deposited data

Results flagged for a closer look

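Of 72 sets of 6 slides tested for a lone slide, 2 had one; chance marks about 1 set in 20. The first was rpl17 probe 6584 on slide set 1, where replicate 6 read -0.80 and the other 5 slides lay between 0.44 and 1.05. The second was rpl2 probe 11189 on slide set 2, where replicate 6 read 0.64 and the other 5 slides lay between 1.11 and 1.24.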

How the results depend on the processing

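Of 644 values recomputed under an alternative, 583 were marked the same, 34 lost a call, 2 gained one, 11 moved and 14 changed sign. All 14 were values without a call. For a tested value, the same mark means an unchanged sign and call. For a count it means staying within a set ratio of the main count. Gene pairs on fewer than 6 slides carried no test and were marked the same when the sign held and the difference stayed within the SD of the main one. The 644 include alternatives whose outcome was fixed in advance. The sign changed for rpl17 on slide set 1 with SAM in Cy5 alone (-0.12); for arpp2a minus rps21b on slide set 1 in the low scan (0.063) and with SAM in Cy5 (0.22) and on slide set 2 in the low scan (-0.36) and with SAM in Cy5 (-0.049); and for arpp2a minus rpl17 on slide set 2 in the low (-0.33) and the high scan (-0.081), with SAM in Cy3 (-0.041) and with the median over clones (-0.031). Leaving out 1 replicate moved these pairs between -0.15 and 0.0053, between -0.090 and 0.12 and between -0.11 and 0.21. No paired analysis was possible because the groups that share replicate numbers are the 2 slide sets, which no test compares; within a set every ratio and every gene pair is already taken on 1 slide. On slide set 2 in the medium scan alone, rpp2b minus arpp2a was -3.79, minus rpl2 -4.44, minus rpl17 -3.35, minus rpl30 -2.25 and minus rps21b -3.30, while arpp2a minus rpl2 was -0.65 and minus rpl30 1.54. In the high scan alone these were -2.43, -3.57, -2.51, -1.42, -2.41, -1.14 and 1.02. In both scans 0 of the P2 and core pairs passed, beside 6 with the scans averaged; for rpp2b each p was still the smallest the test can give, and the adjusted p of 0.056 follows from fewer other pairs reaching that p. In the medium scan alone of slide set 1, arpp2a minus rpl17 passed at 0.38. A 2-fold limit left 6619 of 18302 and 3875 of 12027 probes called, and 256 of 582 and 188 of 455 named genes. On slide set 1 it left 2 member probes toward SAM. The 3 rpp2b clones there, at -3.04, -2.98 and -2.95, stayed called toward seedling. On slide set 2 it left 3 member probes toward SAM and 1 toward seedling. Each dye orientation alone has only 3 slides. With SAM in Cy5 alone 9 member probes of slide set 1 were called toward SAM, beside 15 in the main fit. Calls over all 18302 probes of that slide set also fell, from 11437 to 8969. With SAM in Cy3 alone 1 member probe of slide set 2 was called toward seedling, beside 3 in the main fit. The cause was not tested. Leaving out 1 replicate kept rpp2b between -3.11 and -2.92 and between -2.57 and -2.44, and rpp2b minus arpp2a between -3.70 and -3.53 and between -3.30 and -2.95, where 5 slides allow no p below 0.0625. With spots read as at the floor left out, arpp2a on slide set 2 was 0.80 (limma, adjusted p = 0.036).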

Other observations

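Single clones stood apart in other ribosomal protein genes of slide set 1 as well; these were chosen after their values were seen. The gene rps6 was called toward seedling as a gene, and its probe 6404 was at -2.32 while the other 4 clones lay between -0.31 and 0.76. Of these, probe 8997 was called toward SAM at 0.76 (limma, adjusted p = 0.00075). For RPL19, a large-subunit gene without a call, probe 2990 was at -2.11 while its other clones lay between -0.04 and 0.998. In contrast, the RP-P0 clones of that slide set were all negative, from -0.73 to -0.23.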
